A study of Homo sapiens with 12 samples.

Results

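HOX cluster genes encode the homeodomain transcription factors that sit in 4 clusters, HOXA on chromosome 7, HOXB on chromosome 17, HOXC on chromosome 12 and HOXD on chromosome 2. They were taken by symbol, as HOX followed by the cluster letter A to D and a paralog number. This gave 36 of the 35741 genes in the count table, 9 from each cluster. HOXA7, HOXA9 and HOXB1 were not analysed here. The RNA came from U87, an established human glioblastoma cell line, sequenced in 12 libraries of polyadenylated RNA, 3 in each of 4 groups. The control group was untreated cells, labelled wild type. PNA-10b cells received sgPNA-10b at 150 nM for 72 h, and PNA-21 cells received sgPNA-21 at the same dose and time. PNA-10b+21 cells received both at 150 nM each. An sgPNA is a short peptide nucleic acid, a DNA mimic whose bases hang on a peptide-like chain. It is made to pair with the seed of a microRNA, and was carried in bioadhesive nanoparticles. The labels give no arm with empty nanoparticles or a control strand, so an effect of the carrier and an effect of the sgPNA cannot be told apart against control. They do not say whether replicates were separate cultures, so p-values measure the spread between these libraries, which may be technical.

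HOX proteins give cells along the body axis their position, and the order of the genes in a cluster follows the order in which they act along that axis. Low paralog numbers mark anterior levels and high numbers mark posterior levels and the ends of limbs. Adult brain has little HOX expression, and glioblastomas often switch members on. The miR-10 family lies within the clusters: MIR10A lies within the annotated span of HOXB4, and MIR10B within that of HOXD3, beside HOXD4. HOXD10 is a reported miR-10b target that has been linked to cell invasion, and HOXA3, HOXB3 and HOXD4 have also been reported or predicted as targets of the family.

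A microRNA binds a transcript mainly through its seed, bases 2 to 8 counted from the 5′ end. miR-10b-5p has the same seed as miR-10a-5p. The mature strands of miR-10a-5p and miR-21-5p are shown because the HOX sites below were searched with their seeds, which stand in capitals. They are from RefSeq, GRCh38.p14, at chr17:48579904-48579926 on the minus strand and chr17:59841273-59841294 on the plus strand.
miR-10a-5p: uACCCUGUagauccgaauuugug
miR-21-5p: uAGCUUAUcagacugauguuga

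The reverse complement of the miR-10 seed, ACAGGGT, was searched on the sense strand of the longest annotated 3′ UTR of each gene. It occurred in 3 of 36 HOX genes (8.33%) and in 13.5% of all 19436 UTRs. With CAGGGTA, the match to bases 2 to 7 followed by A, which overlaps it, 4 of 36 HOX genes (11.1%) had a match, against 17.9% of all UTRs. The sites of HOXA3, HOXB3 and HOXD10 are shown because these genes are among the HOX members with a miR-10 match of 7 or 8 bases. The match is in capitals, and the positions are those of the capitals in hg38. The HOXA3 site is at chr7:27107608-27107615. The HOXB3 site is at chr17:48549467-48549474 and the HOXD10 site at chr2:176119507-176119513. HOXD10 is on the plus strand, and HOXA3 and HOXB3 are on the minus strand.
HOXA3: ctttgatcagaaACAGGGTAtatgaaca
HOXB3: cttaacgtgaaaACAGGGTAtatttgaa
HOXD10: ttcatcgtaatgCAGGGTAactattat
HOXA3 and HOXB3, paralogs of group 3, both carried the 8-base match, and HOXD10 carried a 7-base match. The 284-base UTR of HOXD4 held none of these letters. The miR-21 match ATAAGCT was found in 1 of 36 HOX genes (2.78%, against 9.09% of all UTRs), HOXB13, which was too low to test.

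HOX levels in U87 cells were low, and 18 of the 36 genes had enough counts to test. Levels are CPM, counts scaled to library size with TMM factors, and levels of different genes are compared as CPM per kilobase of merged exon. Over all 12 libraries HOXB2 was the most abundant member at 9.21 CPM per kb. HOXD8 followed at 6.05, HOXD4 at 3.61, HOXB3 at 2.59, HOXD13 at 2.34, HOXC6 at 2.13 and HOXB4 at 2.01 CPM per kb. In control cells the median tested gene stood at 4.58 CPM per kb. HOXB2 lay at percentile 66.1 of tested genes and HOXD8 at 55.9, while HOXD4 at 43.2 and all other tested members lay below the middle. HOXD10 was at percentile 5.63 and HOXD3 at 4.71.

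The clusters differed in which members were read. In HOXA, 4 of 9 members were tested, among them HOXA3, HOXA5 and HOXA11. In HOXB, 6 of 9 were tested, the unbroken run from HOXB2 to HOXB7. In HOXC only HOXC4 and HOXC6 were tested, and in HOXD 6 of 9, HOXD3, HOXD4, HOXD8, HOXD9, HOXD10 and HOXD13. HOXC9 to HOXC13 had at most 3 counts in any library. Across all 18 untested members the highest single count was 14, for HOXA4. HOXD13 is a posterior gene of limb and genital development, and it stood apart along its cluster: its nearest neighbour HOXD12 had 0 to 2 counts per library, and HOXD11 had 1 to 10.

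**Figure D1:**
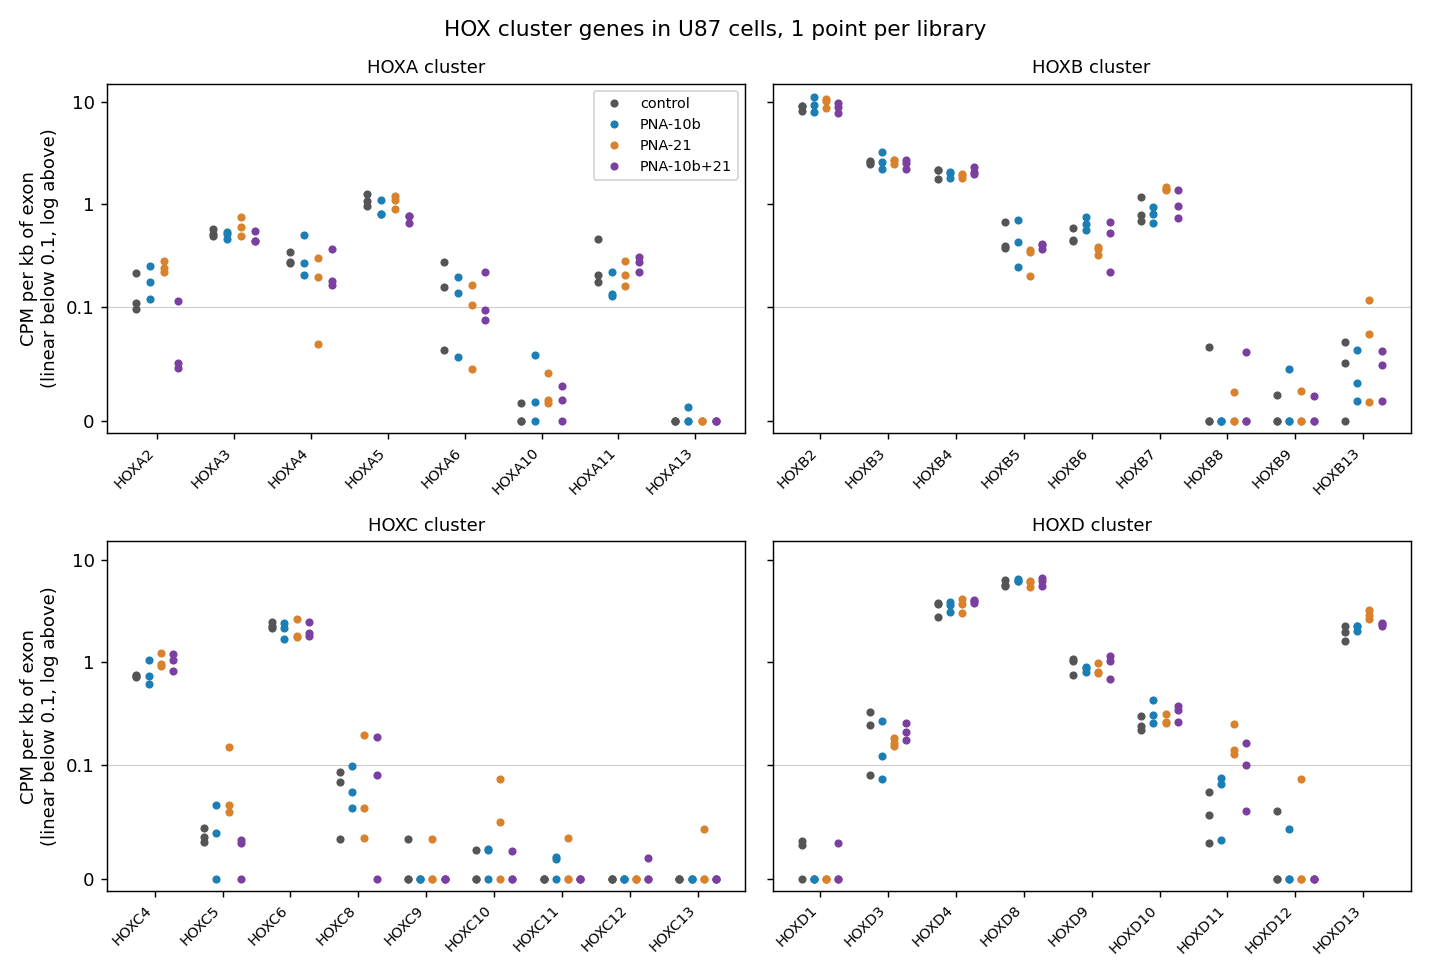
Level of 35 of the 36 HOX cluster genes in each library, in CPM per kb of exon, on an axis that is linear below 0.1 and logarithmic above. Points are single libraries coloured by group. HOXB2 and HOXD8 were highest, HOXC9 to HOXC13 were at or near 0, and the 4 groups lay close together for most genes.

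Summed over its 9 members, the HOXB cluster held 51.2 ± 0.802 CPM (SD, n = 3) in control cells. The treated groups held 53.6 ± 7.64 (PNA-10b), 53.7 ± 2.62 (PNA-21) and 50.8 ± 3.62 CPM (PNA-10b+21). The wide spread in PNA-10b came from replicate 1 at 46.4 CPM and replicate 3 at 61.6 CPM. HOXD summed to 28.2 ± 2.00 CPM in control, and to 29.8 ± 1.00, 30.7 ± 0.569 and 30.8 ± 1.67 CPM in the treated groups, in the same order. HOXA summed to 9.74 ± 0.915 CPM in control and 9.61 ± 0.342, 11.1 ± 1.31 and 9.50 ± 1.23 in PNA-10b, PNA-21 and PNA-10b+21. HOXC summed to 10.4 ± 0.632 CPM in control and 9.90 ± 1.73, 10.7 ± 2.27 and 10.4 ± 1.32 in the same order. In each of the 4 clusters the summed levels of every treated group overlapped those of the control libraries.

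Total counts per library ran from 12846676 to 18305820, which put between 54 and 123 counts on HOXD13 and between 8 and 16 on HOXD10. Control cells held CD44 at 1450 CPM, VIM at 1840 CPM and EGFR at 346 CPM. The glial markers GFAP (4.09 CPM), S100B (1 to 4 counts) and SOX2 (0 to 1 counts) were low or near absent. All 11 glioma and glial markers in the table, CD44, VIM and EGFR among them, summed to 4700 to 5290 CPM in control libraries. They summed to 4330 to 4670, 4690 to 4750 and 4720 to 5010 CPM in PNA-10b, PNA-21 and PNA-10b+21. The summed level of 7 mesenchymal markers was 5120 to 5920 CPM in control libraries, and 3640 to 4140, 3240 to 3450 and 3080 to 3710 CPM in those given sgPNA-10b, sgPNA-21 and both. That of 4 leukocyte markers was 17.4 to 18.3 CPM in control and 10.7 to 14.2 CPM in treated libraries. Of these 4, only 1, CSF1R, had enough counts to test. Neuron markers summed to 85.1 to 93.9 CPM in control and 81.5 to 88.7, 73.1 to 81.3 and 67.5 to 75.5 CPM in the treated groups, in the same order. Endothelial sums overlapped control in every treated group. Epithelial sums, at most 4.48 CPM, overlapped it only in PNA-10b+21. The part of these markers in the results was not tested. In these bulk libraries a smaller share of cells of a type and less RNA per cell cannot be told apart.

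Setting PNA-10b against control shows which RNAs differed after sgPNA-10b, and it bears most directly on the reported miR-10 targets among the HOX genes. None of the 18 tested HOX genes passed the test of edgeR's quasi-likelihood fit at an adjusted p under 0.05 (Benjamini-Hochberg, over 15715 genes). Of all genes, 6.48% passed, 2.75% higher and 3.74% lower. At an unadjusted p under 0.05 the count of HOX genes was 0, against 20.6% of all genes, and DESeq2 called 0, against 5.87% of all genes. Their median log2 fold change was 0.03, against -0.001 for all genes, and 10 of 18 were above 0. The 95% interval excluded a 2-fold change in either direction for 14 of the 18 and a 1.5-fold change for 9. In no HOX gene did the CPM of the PNA-10b and control libraries separate without overlap, which 23.8% of all tested genes did.

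HOXD10 (ENSG00000128710, chr2:176108790-176119942) is a posterior HOX factor reported to restrain cell migration. It had 12, 10 and 8 counts in the control libraries and 16, 14 and 11 in PNA-10b. Levels were 0.804, 0.589 and 0.646 CPM in control and 1.16, 0.825 and 0.687 CPM in PNA-10b. In PNA-21 they were 0.708, 0.683 and 0.845 CPM, and in PNA-10b+21 they were 0.917, 0.708 and 1.00 CPM. The highest value was in a PNA-10b library, and the ranges of all 4 groups overlapped. The log2 fold change against control was 0.37 ± 0.32 (SE) in PNA-10b, with a 95% interval of -0.29 to 1.04 and an edgeR adjusted p of 0.59. It was 0.14 ± 0.32 in PNA-21 and 0.38 ± 0.32 in PNA-10b+21 (edgeR adjusted p = 0.785 and 0.436). At 8 to 16 counts per library no change was detected, and the upper bound of 1.04 still holds a 2-fold change. Of its merged exon sequence, 16.8% is shared with HOXD11 on the same strand.

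HOXA3 and HOXB3 carry the 8-base matches. HOXA3 (ENSG00000105997, chr7:27106184-27152581), a factor of pharyngeal and neck development, measured 2.21, 2.12 and 2.50 CPM in control and 2.25, 2.00 and 2.31 CPM in PNA-10b. It measured 2.60, 3.28 and 2.11 CPM in PNA-21 and 1.89, 1.91 and 2.39 CPM in PNA-10b+21. All groups overlapped, and the log2 fold changes of the PNA-10b, PNA-21 and PNA-10b+21 arms were -0.05 ± 0.21, 0.22 ± 0.20 and -0.13 ± 0.21 (edgeR adjusted p = 0.929, 0.456 and 0.691). Antisense transcripts cover 15.4% of its exon sequence, and the strand setting of the counting is not given in the sources used here.

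HOXB3 (ENSG00000120093, chr17:48548870-48604912), a hindbrain factor, was read more deeply, with 227 to 389 counts per library. It measured 18.6, 19.3 and 19.7 CPM in control and 16.4, 19.3 and 24.3 CPM in PNA-10b. It measured 20.1, 18.3 and 20.3 CPM in PNA-21 and 18.8, 16.6 and 20 CPM in PNA-10b+21. The PNA-10b libraries spread on both sides of control. The log2 fold change of HOXB3 was 0.07 ± 0.11 in PNA-10b (95% interval -0.16 to 0.29, edgeR adjusted p = 0.801), 0.03 ± 0.11 in PNA-21 and -0.05 ± 0.11 in PNA-10b+21 (0.858 and 0.773). This is the best measured HOX gene with a full miR-10 seed match, and its interval in PNA-10b ends below a log2 change of 0.3.

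HOXD4 (ENSG00000170166, chr2:176151222-176153226), a factor of the hindbrain and neck level, starts 919 bases downstream of the start of MIR10B. It measured 4.02, 5.48 and 5.41 CPM in control and 4.56, 5.25 and 5.62 CPM in PNA-10b. It measured 4.43, 6.01 and 5.44 CPM in PNA-21 and 5.73, 5.95 and 5.53 CPM in PNA-10b+21. The combined arm lay just above all control libraries and the other 2 arms overlapped them. Its log2 fold change was 0.06 ± 0.15, 0.09 ± 0.15 and 0.21 ± 0.15 in PNA-10b, PNA-21 and PNA-10b+21 (edgeR adjusted p = 0.891, 0.71 and 0.342). An annotated transcript, AC009336.2, shares 80.5% of the HOXD4 exon sequence and 62.2% of that of HOXD3 on the same strand. It was not analysed here, and counts of both genes are uncertain for that reason.

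The MIR10B gene itself (chr2:176150303-176150412), inside the annotated span of HOXD3, had 4, 4 and 5 counts in the control libraries. Those given sgPNA-10b had 7, 0 and 3, those given sgPNA-21 had 1, 3 and 4, and those given both had 4, 5 and 1. It was not tested, and reads of polyadenylated RNA at this locus do not measure the mature microRNA.

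**Figure D2:**
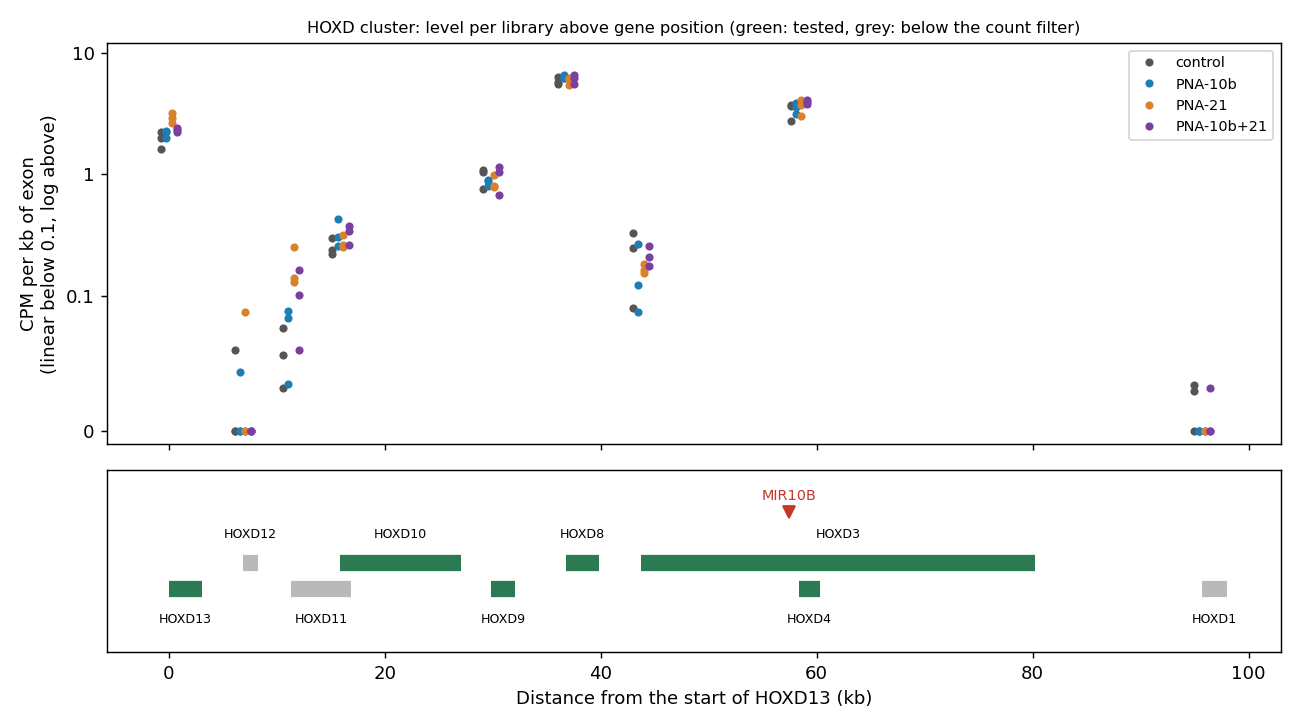
HOXD cluster on hg38. Top, CPM per kb of exon in each library, on an axis that is linear below 0.1 and logarithmic above, placed at the start of each gene and coloured by group. Bottom, gene spans by distance in kb from the start of HOXD13, green where tested and grey where below the count filter, with MIR10B at 57.4 kb. HOXD13, HOXD8 and HOXD4 were the 3 peaks, and PNA-21 libraries stood above the others at HOXD13.

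In the comparison of PNA-21 with control, 1 of 18 tested HOX genes rose and 0 fell by edgeR's quasi-likelihood test. Of all genes, 29.8% passed, 15.2% higher and 14.6% lower. DESeq2 called 1 HOX gene as well, and 25.4% of all genes. At an unadjusted p under 0.05 there were 4 of 18, among them HOXB7, HOXC4 and HOXD13, while 39.9% of all genes lay under it. The median log2 fold change of the 18 was 0.02, against -0.006 for all genes, and 10 were above 0. Treated and control CPM did not overlap for 6 HOX genes of 18, and for 42.4% of all tested genes. The interval excluded a 2-fold change in either direction for 13 of 18 and a 1.5-fold change for 7.

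HOXD13 (ENSG00000128714, chr2:176092891-176095938) was the gene that rose. It measured 3.62, 5.01 and 4.44 CPM in control and 4.49, 5.01 and 5.06 CPM in PNA-10b. In PNA-21 it measured 5.90, 7.17 and 6.5 CPM, and in PNA-10b+21 5.04, 5.24 and 5.40 CPM. Every PNA-21 library was above all 9 libraries of the other groups, and the PNA-10b+21 libraries lay just above the highest control. The log2 fold change in PNA-21 was 0.57 ± 0.14 (95% interval 0.28 to 0.86, edgeR adjusted p = 0.00365), a 1.49-fold rise, and DESeq2 gave 0.58 with an adjusted p of 0.0104. It stayed past the threshold in 19 of 19 alternative settings, with log2 fold changes of 0.45 to 0.70. HOXD13 shares no exon sequence with another annotated gene. Its longest annotated 3′ UTR, of 1208 bases, held neither CAGGGT nor TAAGCT, the 6-base matches searched for miR-10 and miR-21. Other 6-base seed matches were not searched. The log2 fold change of HOXD13 was 0.15 ± 0.15 in PNA-10b and 0.26 ± 0.14 in PNA-10b+21 (edgeR adjusted p = 0.609 and 0.202).

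Tested directly, HOXD13 was 0.42 ± 0.13 higher on the log2 scale in PNA-21 than in PNA-10b (edgeR adjusted p = 0.0669). It was -0.32 ± 0.13 in PNA-10b+21 relative to PNA-21 (0.493). The interaction, the departure of the combined arm from the sum of the single effects, was -0.47 ± 0.20 (0.19). None of these differences passed. With the replicate number as a block, PNA-21 against PNA-10b passed at the same 0.42 (edgeR adjusted p = 0.0461), and the numbers were not found to pair the libraries. Its untested neighbour HOXD11 had 1, 2 and 2 counts in the control libraries and 5, 4 and 10 with sgPNA-21. It had 1, 3 and 3 with sgPNA-10b and 6, 3 and 2 with both.

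Among genes that missed the threshold, HOXB7, a trunk factor, came closest. It measured 1.81, 1.06 and 1.21 CPM in control and 2.13, 2.25 and 2.17 CPM in PNA-21. It measured 1.01, 1.24 and 1.44 CPM in PNA-10b and 1.49, 2.12 and 1.13 CPM in PNA-10b+21. The PNA-21 libraries were the 3 highest of the 12. Its log2 fold change was 0.68 ± 0.26 (edgeR adjusted p = 0.0522). HOXB7 passed in 6 of 19 alternative settings, among them those that leave out control replicate 1 or either of replicates 2 and 3 of PNA-10b+21, in each of which 2 HOX genes were called. HOXC4, a factor of the neck and forelimb level, measured 1.94, 2.06 and 2.02 CPM in control and 2.60, 2.53 and 3.33 CPM in PNA-21, without overlap, at 0.50 ± 0.22 (edgeR adjusted p = 0.0972). HOXB5 and HOXB6 were the 2 members with lower PNA-21 libraries that did not overlap control, at -0.60 ± 0.38 and -0.44 ± 0.33 (edgeR adjusted p = 0.253 and 0.332). Neighbouring HOXB genes thus had values on both sides of 0. HOXB7, HOXC4, HOXB5 and HOXB6 were chosen after their values were seen.

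HOXB2, HOXD8 and HOXC6 were the most abundant members per kb of the HOXB, HOXD and HOXC clusters. HOXB2, a hindbrain factor, measured 21.3, 21.3 and 18.9 CPM in control and 20.2, 23.8 and 24.8 CPM in PNA-21. It measured 18.6, 21.9 and 25.8 CPM in PNA-10b and 20.9, 18.0 and 22.9 CPM in PNA-10b+21. All groups overlapped, with log2 fold changes of 0.11 ± 0.11, 0.16 ± 0.11 and 0.01 ± 0.11 in PNA-10b, PNA-21 and PNA-10b+21 (edgeR adjusted p = 0.632, 0.295 and 0.971). HOXD8, expressed in trunk tissues, measured 15, 16.6 and 14.7 CPM in control and 16.3, 16.3 and 17.2 CPM in PNA-10b. It measured 16.2, 14.3 and 15.9 CPM in PNA-21 and 17.3, 14.7 and 16.4 CPM in PNA-10b+21. Its log2 fold changes were 0.10 ± 0.09, 0.00 ± 0.09 and 0.06 ± 0.09 (edgeR adjusted p = 0.564, 0.975 and 0.649). The intervals of HOXD8 against control ran from -0.18 to 0.28 over the 3 comparisons. HOXC6, a thoracic factor, measured 8.04, 8.72 and 7.67 CPM in control, 6.01, 7.66 and 8.62 CPM in PNA-10b, 6.20, 6.35 and 9.35 CPM in PNA-21 and 6.76, 6.44 and 8.66 CPM in PNA-10b+21. In each treated group 2 libraries lay below all controls and 1 lay within or above them. Its log2 fold changes were -0.13 ± 0.16, -0.15 ± 0.16 and -0.16 ± 0.16 (edgeR adjusted p = 0.722, 0.521 and 0.501). HOXC6 and HOXC4 share part of their exons on 1 strand, 15.7% of HOXC6 and 17.8% of HOXC4, and how the counting split those reads is uncertain.

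**Figure D3:**
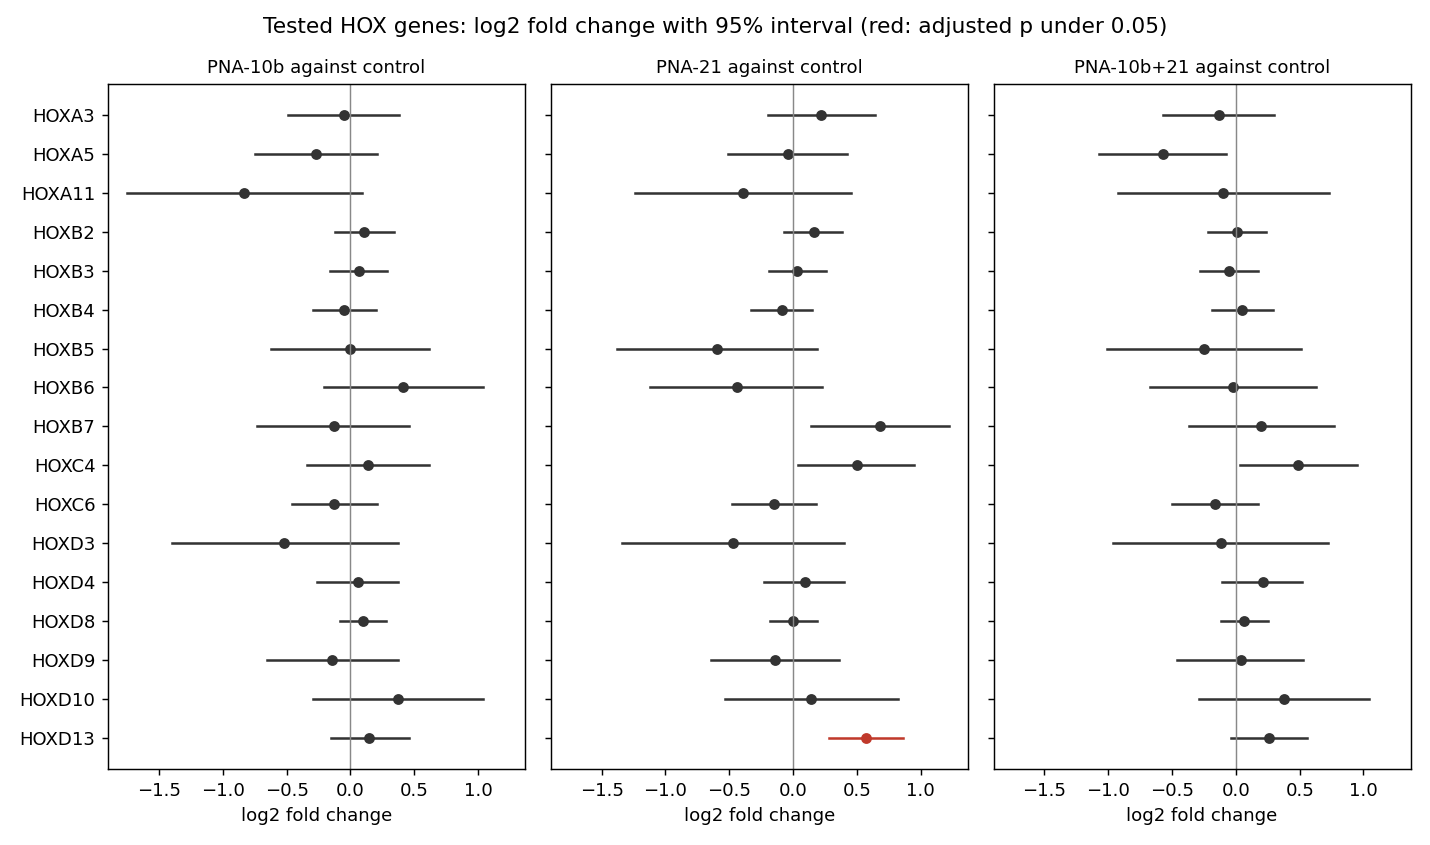
Log2 fold change against control with its 95% interval for 17 of the 18 tested HOX genes, in PNA-10b (left), PNA-21 (middle) and PNA-10b+21 (right). HOXD13 in PNA-21, in red, was the only value with an adjusted p under 0.05. Intervals were widest for HOXA11, HOXD3, HOXB5, HOXB6 and HOXD10, which had the fewest counts.

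In the comparison of PNA-10b+21 with control, 0 of 18 tested HOX genes passed edgeR's test, where 27.0% of all genes did, 13.6% higher and 13.4% lower. At an unadjusted p under 0.05 there were 2, HOXA5 and HOXC4, against 37.9% of all genes. DESeq2 called 0 HOX genes and 23.2% of all genes. Without PNA-10b+21 replicate 3, 1 gene passed. The median log2 fold change was 0.02 against -0.003 for all genes, and 10 of 18 were above 0. Treated and control CPM did not overlap for 4 of 18 HOX genes, HOXA5, HOXC4, HOXD4 and HOXD13, and for 40.1% of all tested genes. The interval excluded a 2-fold change in either direction for 15 of 18 and a 1.5-fold change for 9. HOXA5, a lung and trunk factor, measured 2.15, 1.65 and 1.86 CPM in control, 1.38, 1.89 and 1.37 CPM in PNA-10b and 1.53, 2.05 and 1.90 CPM in PNA-21. In PNA-10b+21 it measured 1.32, 1.13 and 1.32 CPM, below every control and PNA-21 library, at a log2 fold change of -0.57 ± 0.24 (edgeR adjusted p = 0.0813). HOXC4 measured 3.27, 2.27 and 2.89 CPM in PNA-10b+21, at 0.49 ± 0.22 (edgeR adjusted p = 0.109). HOXA5 was chosen after its values were seen. The 3 comparisons against control share the same 3 control libraries.

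**Figure D4:**
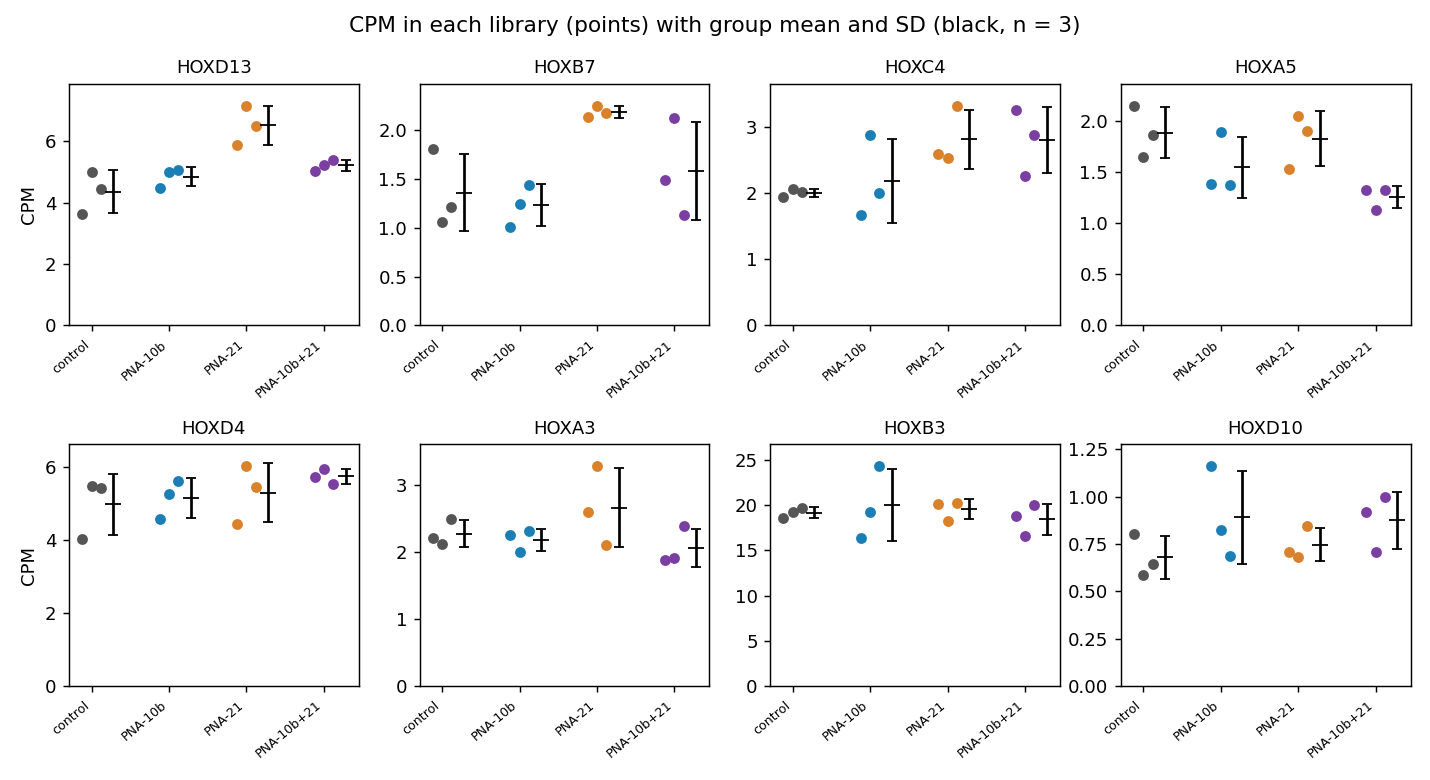
CPM of 8 HOX genes in each library (points, by group), with the group mean and SD in black (n = 3). The PNA-21 libraries of HOXD13 lie at 5.90 to 7.17 CPM, above all others. HOXA3, HOXB3 and HOXD10, which have a miR-10 seed match, and HOXD4 show overlapping control and PNA-10b points.

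Between the treatments no HOX gene passed the edgeR test with all 4 groups in the fit. In PNA-21 against PNA-10b the count was 0 of 18 by edgeR, where 6.79% of all genes passed, and 0 by DESeq2, where 6.54% did. At an unadjusted p under 0.05 edgeR had 3 of 18 HOX genes and 21.7% of all genes. The count became 1 in the fit to those 2 groups alone, with HOXB7 at an edgeR adjusted p of 0.0438, and 1 with the replicate block, with HOXD13. HOXB6 had the lowest log2 fold change there, -0.86 ± 0.31, and HOXB7 the highest, 0.81 ± 0.26 (edgeR adjusted p = 0.0985 and 0.064). In PNA-10b+21 against PNA-10b the count was 0 of 18 by edgeR and by DESeq2, where 9.70% and 8.93% of all genes passed. At an unadjusted p under 0.05 there were 0 HOX genes and 23.9% of all genes. In PNA-10b+21 against PNA-21 it was 0 of 18 by edgeR and by DESeq2, with 2 at an unadjusted p under 0.05. There 0% of all 15715 genes passed by edgeR (1354, or 8.62%, at an unadjusted p under 0.05) and 0% by DESeq2 (944 at an unadjusted p under 0.05). In the interaction 0 of 18 passed by edgeR and by DESeq2, with 1, HOXD13, at an unadjusted p under 0.05 by edgeR, where 18.7% of all genes lay. Of all genes 3.12% passed by edgeR and 3.98% by DESeq2.

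A list of named long noncoding RNAs of the clusters, several antisense to HOX genes, had 13 members in the table and 6 tested. Passing were 1 of 6 in PNA-10b, 2 of 6 in PNA-21 and 0 of 6 in PNA-10b+21, against 6.48%, 29.8% and 27.0% of all genes. AC012531.1, a tested HOXC noncoding RNA outside the list, was at -0.08 ± 0.23, -0.10 ± 0.23 and -0.13 ± 0.23 (edgeR adjusted p = 0.897, 0.782 and 0.729). In PNA-21 HOTAIRM1, from the anterior end of the HOXA cluster, rose, and HOXB-AS1, antisense to the HOXB2 and HOXB3 region, fell. HOXB-AS1 measured 7.31, 6.07 and 7.75 CPM in control and 3.90, 4.71 and 5.76 CPM in PNA-21, at a log2 fold change of -0.54 ± 0.15 (edgeR adjusted p = 0.00829). Without PNA-21 replicate 1 its edgeR adjusted p was 0.0565, and 0 of 6 passed. HOTAIRM1 measured 4.22, 4.18 and 3.95 CPM in control and 5.49, 5.12 and 5.49 CPM in PNA-21, at 0.38 ± 0.14 (edgeR adjusted p = 0.0442). HOTAIRM1 kept its call in 9 of 19 alternatives. It lost it by DESeq2, without a low-count filter, in the compared groups alone, and without any 1 of the 3 control libraries, the 3 PNA-21 libraries or PNA-10b replicate 3, which left 1 or 0 of 6. In PNA-10b 1 of 6 fell, HOXA-AS2, which covers part of HOXA3 on the other strand. It measured 2.15, 2.71 and 3.31 CPM in control and 1.74, 1.12 and 1.5 CPM in PNA-10b, at -0.91 ± 0.26 (edgeR adjusted p = 0.0399). That call was lost by DESeq2, without any 1 control library, and without either of PNA-10b replicates 2 and 3 or PNA-21 replicate 3, each of which left 0 of 6. In PNA-10b+21 0 of 6 passed by edgeR, and 1 did, HOXB-AS1, without control replicate 2. HAGLR and HOXD-AS2, antisense RNAs of the HOXD cluster, did not pass in any comparison against control. HAGLR was at 5.50 ± 0.368 CPM in control and 4.77 ± 0.759, 5.27 ± 0.241 and 5.22 ± 0.382 in PNA-10b, PNA-21 and PNA-10b+21 (SD, n = 3). HOTAIR, from the HOXC cluster, had at most 3 counts in any library. Without the strand setting of the counting, reads of these RNAs and of the HOX genes they overlap cannot be told apart.

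HOX proteins bind DNA with partners of the TALE homeodomain class, the PBX, MEIS and PKNOX factors. Of 6 tested TALE genes, 1 rose and 1 fell in PNA-10b, 1 rose and 3 fell in PNA-21, and 1 rose and 3 fell in PNA-10b+21. Of all genes, 2.75% rose and 3.74% fell in the first comparison, 15.2% and 14.6% in the second, and 13.6% and 13.4% in the third. The median log2 change of the 6 was 0.00, -0.05 and -0.11 in that order. PBX3 was the gene that rose in all 3. It measured 48.3, 49.7 and 43.5 CPM in control, 59.6, 60.0 and 58.2 CPM in PNA-10b, 65.0, 70.0 and 64.9 CPM in PNA-21 and 66.4, 66.7 and 62.3 CPM in PNA-10b+21. No treated library of PBX3 overlapped control. Its log2 fold changes were 0.32 ± 0.06, 0.49 ± 0.06 and 0.46 ± 0.06 (edgeR adjusted p = 0.00201, 3.21e-06 and 7.08e-06), and they passed in every alternative setting run. MEIS3 fell in PNA-21 and PNA-10b+21, at -0.26 ± 0.05 in each (edgeR adjusted p = 0.000823 and 0.000873). In PNA-10b it was at -0.18 ± 0.05 (0.042), and leaving out any of 7 libraries, control replicates 1 and 3, PNA-10b replicates 1 and 2, PNA-21 replicate 3 and PNA-10b+21 replicates 1 and 2, left PBX3 as 1 of 6. PKNOX1 fell in PNA-21 at -0.23 ± 0.06 and in PNA-10b+21 at -0.19 ± 0.06 (edgeR adjusted p = 0.00486 and 0.0153).

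Retinoic acid induces HOX genes from the anterior end of each cluster, and RARA and RXRA encode the receptor pair through which it acts. Of 10 tested retinoic acid genes, 1 rose and 3 fell in PNA-10b, 1 rose and 4 fell in PNA-21, and 0 rose and 6 fell in PNA-10b+21. The list's median log2 change was -0.14, -0.24 and -0.38, and the shares of all genes lower were 3.74%, 14.6% and 13.4% (higher, 2.75%, 15.2% and 13.6%). CRABP2, the carrier that hands retinoic acid to its nuclear receptors, measured 39.8, 35.2 and 40.3 CPM in control and 29.6, 23.5 and 26.9 CPM in PNA-10b. It measured 17.9, 18.6 and 16.7 CPM in PNA-21 and 13.4, 15.3 and 14.9 CPM in PNA-10b+21. Each treated group lay below control without overlap, at -0.53 ± 0.08, -1.12 ± 0.09 and -1.40 ± 0.09 (edgeR adjusted p = 0.000582, 1.68e-08 and 2.58e-09). RARA fell to 43.1 ± 0.451 CPM (SD, n = 3) in PNA-21 and 41.5 ± 3.74 in PNA-10b+21, from 55.5 ± 0.293 in control, at -0.36 ± 0.06 and -0.42 ± 0.06 (edgeR adjusted p = 0.00012 and 2.65e-05). In PNA-10b RARA also fell, at -0.22 ± 0.06 (edgeR adjusted p = 0.028). CYP26B1, which degrades retinoic acid, fell at -0.68 ± 0.13 in PNA-21 and -0.79 ± 0.14 in PNA-10b+21 (edgeR adjusted p = 0.000681 and 0.000186). In PNA-21 and PNA-10b+21 the members that fell thus include both the carrier and receptors and the enzyme that removes the ligand. ALDH1A3 was the member that rose, at 0.29 ± 0.07 in PNA-10b and 0.28 ± 0.07 in PNA-21 (edgeR adjusted p = 0.0202 and 0.00659). The count in PNA-10b was 1 of 10 without control replicate 1, control replicate 3 or PNA-10b replicate 2, and that in PNA-21 was 3 of 10 without control replicate 3.

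Polycomb complexes keep HOX clusters silent, and EZH2 is the enzyme that places their histone mark. Of 23 tested Polycomb genes, 1 rose and 0 fell in PNA-10b, 6 rose and 1 fell in PNA-21, and 3 rose and 1 fell in PNA-10b+21, with median log2 changes of 0.04, 0.10 and 0.07. In either direction 6.48%, 29.8% and 27.0% of all genes passed, so 1, 7 and 4 of 23 were near or under the share of all genes. By direction, 2.75%, 15.2% and 13.6% of all genes rose and 3.74%, 14.6% and 13.4% fell. In PNA-21 the 6 of 23 that rose were thus above the share of all genes, and the 1 that fell was below it. EZH2 measured 83.7, 87.1 and 83.0 CPM in control, 106, 111 and 109 CPM in PNA-21 and 118, 113 and 101 CPM in PNA-10b+21. It rose at 0.36 ± 0.06 and 0.39 ± 0.06 (edgeR adjusted p = 8.08e-05 and 3.12e-05), in every alternative setting run. In PNA-10b EZH2 was the 1 gene that passed, at 0.20 ± 0.06 (edgeR adjusted p = 0.0419), and 0 passed without control replicate 1 or 3, PNA-10b replicate 2 or 3, PNA-21 replicate 1 or 2, or PNA-10b+21 replicate 2. CBX8, a reader of the Polycomb mark, was the gene that fell in PNA-21, at -0.51 ± 0.13 (edgeR adjusted p = 0.00579). It was also the gene that fell in PNA-10b+21, at -0.35 ± 0.13 (edgeR adjusted p = 0.0497). The count in PNA-21 was 3 without control replicate 1 or PNA-21 replicate 3 and 4 without control replicate 3. That in PNA-10b+21 was 1 without its replicate 1, and 2 with its replicate 2 or control replicate 1 left out.

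Trithorax proteins and their partners hold HOX genes active. Of 18 tested members, 0 rose and 1 fell in PNA-10b, 2 rose and 2 fell in PNA-21, and 3 rose and 1 fell in PNA-10b+21, with median log2 changes of 0.01, 0.04 and 0.04. These 1, 4 and 4 of 18 stand beside 6.48%, 29.8% and 27.0% of all genes. ASH1L, a histone methyltransferase, fell in PNA-21 at -0.35 ± 0.06 (edgeR adjusted p = 0.000206), and PSIP1, which tethers the KMT2A complex to chromatin, rose at 0.27 ± 0.05 (0.000538). ASH1L also fell in PNA-10b and PNA-10b+21, at -0.21 ± 0.06 in each (edgeR adjusted p = 0.0385 and 0.0109). PSIP1 also rose in PNA-10b+21, at 0.17 ± 0.05 (edgeR adjusted p = 0.0168). The PNA-21 count was 2 without control replicate 3, PNA-21 replicate 1 or PNA-21 replicate 2. The PNA-10b count was 0 with any of control replicate 3, PNA-10b replicates 2 and 3 and PNA-10b+21 replicates 1 and 2 left out. The PNA-10b+21 count was 0 without control replicate 3 and 2 without its own replicate 2. It was 1 with its replicate 1 or control replicate 1 left out.

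**Figure D5:**
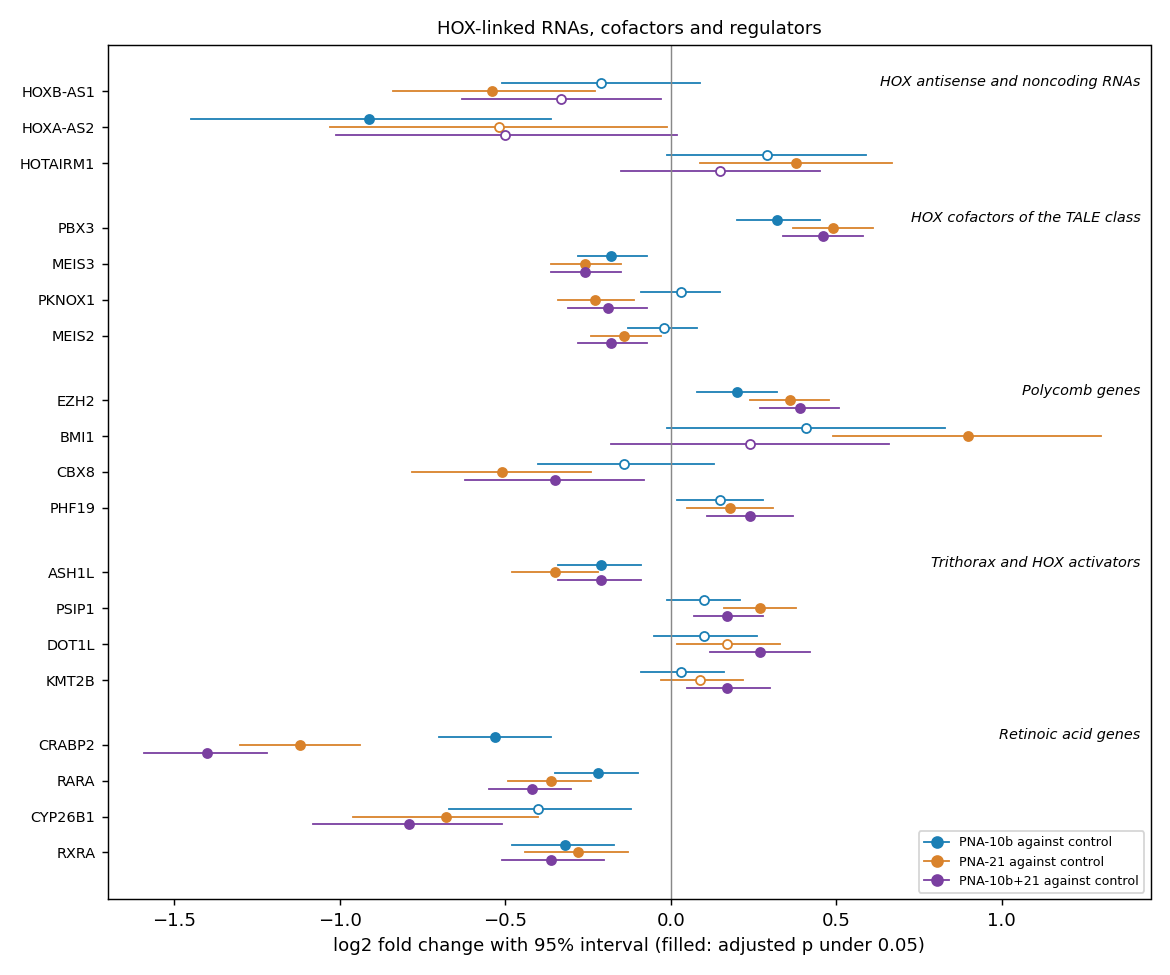
Log2 fold change against control with 95% intervals for named HOX-linked noncoding RNAs, TALE cofactors, Polycomb and Trithorax genes and retinoic acid genes, coloured by comparison. Filled points passed at an adjusted p under 0.05. HOXA-AS2 was lowest in PNA-10b, at -0.91, where CRABP2 was at -0.53. CRABP2 was lowest in the other comparisons, at -1.12 and -1.40, and PBX3 rose in all 3 comparisons.

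Genes that flank the clusters lie in the same chromosome regions. Of 16 tested neighbours, 0 rose and 1 fell in PNA-10b, 3 rose and 1 fell in PNA-21, and 1 rose and 3 fell in PNA-10b+21. These 1, 4 and 4 of 16 were close to the shares of all genes, 6.48%, 29.8% and 27.0%. Their median log2 changes were 0.01, -0.02 and -0.02. CALCOCO1, on the HOXC side, fell in PNA-21 and PNA-10b+21 at -0.35 ± 0.07 and -0.31 ± 0.07 (edgeR adjusted p = 0.00103 and 0.00307). Leaving out PNA-21 replicate 2 or 3 made the PNA-10b count 2. It was 0 with any of control replicates 1 and 3 and PNA-10b replicates 1 and 2 left out. The PNA-21 count was 2 without control replicate 3 or PNA-21 replicate 2. The PNA-10b+21 count was 1 without its replicate 1, and 2 with control replicate 2 or 3 left out.

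Reported miR-10 targets outside the HOX clusters moved in both directions. Of 13 tested, 1 rose and 1 fell in PNA-10b, 4 rose and 1 fell in PNA-21, and 5 rose and 4 fell in PNA-10b+21, with median log2 changes of -0.02, 0.00 and 0.03. The shares of all genes that rose were 2.75%, 15.2% and 13.6%, and of those that fell 3.74%, 14.6% and 13.4%. BUB1, a mitotic checkpoint kinase, rose in all 3, at 0.32 ± 0.06, 0.36 ± 0.06 and 0.41 ± 0.06 (edgeR adjusted p = 0.00167, 6.65e-05 and 1.64e-05). The PNA-10b count was 1 with any of control replicates 1 and 3 and PNA-10b replicates 1 and 3 left out.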

How the data were processed

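The values the authors deposited are raw, whole-number counts for each Ensembl gene in the 12 libraries. The submitters' processing notes name HISAT2 2.1.0, SAMtools 1.7, HTSeq 0.11.0 and the build hg38. The library kit is stranded per the labels' protocols, and the strand setting of the counting is not given in the sources used here. Genes were kept with filterByExpr of edgeR 4.0.16 (R 4.3.3) at a minimum count of 10, which left 15715 genes holding 99.84% of counts. Libraries were scaled with TMM factors and fitted together with the quasi-likelihood test, 1 mean per group, for 7 comparisons. Adjusted p-values are Benjamini-Hochberg over all tested genes, with a threshold of 0.05. The error beside a log2 fold change is its standard error (SE) from that fit, with 3 libraries a group. Positions, exon overlaps and 3′ UTRs are from GENCODE 29. DESeq2 1.42.0, other scalings and filters, a fit to the compared groups alone, a replicate block and leaving out each library were alternatives.

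The HOX members and the lists were chosen with earlier results of these data known. Members given in full were those past the threshold, the 5 reported or conserved miR-10 targets and the most abundant gene of each cluster, and up to 4 genes of each other list by smallest adjusted p. Of these, 1 HOX gene and 1 gene of another list are counted but their values are not reported here. Same-numbered libraries of different groups did not deviate together (correlations of -0.058 to 0.109 over 18 pairs), so the replicate number was not used as a block in the main fit.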

Additional observations from a re-analysis of the deposited data

How the results depend on the processing

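Over 207 log2 fold changes of single genes and 19 alternative settings there were 3875 values. Of these 3736 stayed on the same side of the threshold, 120 lost it, 19 gained it and 0 changed direction while called. Depth is a limit for the low members: 18 HOX genes with at most 14 counts in any library were not tested.

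For HOX genes in PNA-21 against control, the count of 1 became 2, with HOXB7, under scaling by library size alone, a minimum count of 30, and a fit to the compared groups alone. In PNA-21 against PNA-10b the count of 0 became 1 in the fit to the compared groups alone (HOXB7) and 1 with the replicate block (HOXD13, adjusted p = 0.0461). The block made it 2 for cluster neighbours in PNA-10b and changed no other count of a list by more than 1.5 times.

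In PNA-10b, DESeq2 gave 0 for the noncoding RNAs, 0 for the neighbours, 1 for the TALE genes and 1 for the miR-10 targets outside HOX. Library size alone gave 0 for the neighbours, 1 for the TALE genes and 0 for the Trithorax genes. The fit to the compared groups alone gave 1 for the TALE genes and 0 for the Trithorax genes, and no low-count filter gave 2 for the Polycomb genes. In PNA-21 the noncoding RNAs were 1 by DESeq2, 1 without a low-count filter and 1 in the compared groups alone, and the neighbours were 7 with library size alone. In PNA-10b+21 the TALE genes were 2 with library size alone.

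Leaving out 1 library at a time gave these ranges. For HOX genes they were 1 to 2 (PNA-21 against control) and 0 to 1 (PNA-10b+21 against control), and 0 in the other 5 comparisons. In PNA-10b the ranges were 0 to 1 (noncoding RNAs), 0 to 2 (neighbours), 1 to 2 (TALE), 0 to 1 (Polycomb), 0 to 1 (Trithorax), 1 to 4 (retinoic acid) and 1 to 2 (miR-10 targets outside HOX). In PNA-21 they were 0 to 2, 2 to 6, 3 to 4, 3 to 8, 2 to 4, 3 to 5 and 4 to 5 in the same order. In PNA-10b+21 they were 0 to 1, 1 to 4, 3 to 4, 1 to 4, 0 to 5, 5 to 7 and 7 to 9. The fewer samples of these fits aside, the cause was not tested. The fit to the compared groups alone was not run for the interaction, which needs all 4.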

Other observations

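PBX2, a TALE cofactor of HOX proteins that was below the count filter, had 65 counts in control replicate 3 and 0 to 6 counts in each of the other 11 libraries. It was chosen after its values were seen.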
